A study of Mus musculus with 5 samples.

Results

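The genes described here are 9 imprinted genes, which are transcribed mainly from the copy inherited from one parent: Dlk1, Meg3, Rian, Mirg and Dio3 of the Dlk1-Dio3 cluster on chromosome 12, and H13, Grb10, Igf2r and Gnas from 3 other chromosomes. They were taken by symbol from a table of 22869 gene symbols, each represented by its transcript row with the highest mean count, and all 9 passed the filter on low counts. RNA came from laser-captured intervillus cells, the proliferating epithelium between the villi, of the proximal jejunum of mice at postnatal day 0. The mutants were Dnmt1 L/L; VillinCre, in which both Dnmt1 alleles are floxed and Cre is driven by the Villin promoter, which is active in gut epithelium (2 libraries, mutants 4 and 6). The controls were Dnmt1 L/+ littermates with a single floxed allele (3 libraries, controls 1, 2 and 3); their genotype label names no Cre. Mutant areas were collected where neighbouring sections lacked the proliferation marker Ki67 and control areas where they had it, so loss of Dnmt1 and the choice of areas cannot be told apart.

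In an imprinted region, a stretch of DNA that carries methylation on the copy from one parent decides which copy is transcribed. DNMT1 copies that methylation to the new strand each time the DNA is replicated, and it acts on cytosines followed by guanine (CpG). At the Dlk1-Dio3 cluster of the mouse the controlling region is methylated on the paternal chromosome. The paternal copy expresses the protein-coding genes Dlk1, Rtl1 and Dio3, and the maternal copy the noncoding RNAs Meg3, Rian and Mirg, which host many small nucleolar RNAs and microRNAs. Dlk1 and Dio3 are therefore paternally expressed neighbours of the maternally expressed genes. H13, Igf2r and, outside the brain, Grb10 are expressed mainly from the maternal copy, while Gnas yields maternal, paternal and biallelic transcripts from different start sites. Reads here are counted per transcript without regard to parent, so the values below are totals over both copies.

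The sequence before the start site of a gene shows how many CpG sites lie within reach of DNMT1 there. The 250 bases before the annotated start of 4 cluster genes and of Grb10 are printed because both mutants lay above all controls for these 4 cluster genes and below them for Grb10, whose window also had the most CpG sites. They are RefSeq sequences of build GRCm38.p6, written 5′ to 3′ along the strand of the gene, with every CpG in capitals. The counts were made on build mm9, so these positions are not those of the counting. The windows are chr12:109452573-109452822 for Dlk1, chr12:109540746-109540995 for the first of 2 annotated starts of Meg3, chr12:109603695-109603944 for Rian and chr12:109734731-109734980 for Mirg, all on the plus strand, and chr11:12037421-12037670 on the minus strand for the first of 2 starts of Grb10.
Dlk1: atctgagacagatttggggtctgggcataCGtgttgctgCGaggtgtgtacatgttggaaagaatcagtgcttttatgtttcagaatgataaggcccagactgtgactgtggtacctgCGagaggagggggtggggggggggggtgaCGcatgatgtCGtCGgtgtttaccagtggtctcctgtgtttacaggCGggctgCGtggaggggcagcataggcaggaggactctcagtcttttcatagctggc
Meg3: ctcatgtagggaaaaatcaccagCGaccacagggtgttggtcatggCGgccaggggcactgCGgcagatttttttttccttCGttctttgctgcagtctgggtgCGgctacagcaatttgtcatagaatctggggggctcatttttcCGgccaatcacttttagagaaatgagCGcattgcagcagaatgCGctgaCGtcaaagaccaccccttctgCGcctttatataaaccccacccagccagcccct
Rian: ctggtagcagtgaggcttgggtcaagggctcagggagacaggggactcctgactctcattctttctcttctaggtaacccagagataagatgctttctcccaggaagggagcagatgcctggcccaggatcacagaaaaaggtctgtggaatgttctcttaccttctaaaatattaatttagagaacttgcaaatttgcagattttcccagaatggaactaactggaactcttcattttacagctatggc
Mirg: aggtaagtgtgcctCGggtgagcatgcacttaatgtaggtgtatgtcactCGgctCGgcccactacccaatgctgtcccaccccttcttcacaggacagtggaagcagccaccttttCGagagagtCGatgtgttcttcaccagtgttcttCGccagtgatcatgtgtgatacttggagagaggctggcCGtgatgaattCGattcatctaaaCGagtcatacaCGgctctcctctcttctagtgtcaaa
Grb10: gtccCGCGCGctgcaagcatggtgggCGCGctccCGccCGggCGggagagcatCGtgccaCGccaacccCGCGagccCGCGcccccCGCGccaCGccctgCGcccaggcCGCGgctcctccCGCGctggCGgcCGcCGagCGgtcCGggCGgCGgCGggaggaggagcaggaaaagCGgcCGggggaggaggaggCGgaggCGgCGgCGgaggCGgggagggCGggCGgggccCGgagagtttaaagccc

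The windows differed widely in CpG content. Dlk1 had 8 CpG sites, Meg3 10, Rian 0, Mirg 10 and Grb10 40, against a median of 6 and quartiles of 2 and 16 over the 32851 windows of the same length in the table. The second annotated start of Meg3 had 0 and that of Grb10 had 8. A window with 0 CpG sites, as at Rian, was found for 7.87% of all starts. Of the genes not printed, Dio3 had 21, H13 18 and Igf2r 27 CpG sites, and the 4 starts of Gnas had between 14 and 29. The letters TGCCGC, which the imprint-protecting zinc finger protein ZFP57 binds when methylated, were searched on both strands. They occurred 1 time in the Meg3 window, in none of the other 13 windows of the 9 genes, and in 8.68% of all windows. Controlling regions away from the start sites lie outside these windows.

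The targeted gene and the libraries were checked first. Dnmt1 had 37.8 and 40.5 CPM (counts relative to the TMM-adjusted size of each library) in the mutants, against 123, 128 and 95.1 CPM in the controls (log2 fold change -1.56 ± 0.16, SE; edgeR adjusted p = 3.74e-05). The mutant libraries held 8730268 and 10260760 reads and the control libraries 10530200 to 13356901, with 1 row per gene. All 12 epithelial markers were detected, with summed levels of 5870 and 5980 CPM in mutants and 6230 to 6600 CPM in controls. Their median log2 fold change was -0.22, with both mutants below all controls for 6 markers and above them for 1. By edgeR 1 rose, Krt18 (log2 fold change 0.79 ± 0.14, edgeR adjusted p = 0.00255). The transcription factor Cdx2 fell (-0.94 ± 0.18, edgeR adjusted p = 0.00454), and the other 10 did not pass. Xist, the RNA of the inactive X chromosome, had 639 and 900 CPM in mutants and 2.96 to 4.26 CPM in controls, and the Y-linked genes Ddx3y, Eif2s3y, Kdm5d and Uty had at most 0.177 CPM in any mutant and at least 26.5 CPM in every control. Sex-linked transcripts therefore went with genotype in these libraries, and their parts in a difference cannot be told apart. Mki67, which encodes Ki67, had 511 and 506 CPM in mutants and 773 to 1022 CPM in controls (log2 fold change -0.84 ± 0.15; edgeR adjusted p = 0.0028). Whether every library came from its own mouse is not stated in the labels, and p-values thus rest on variation among these 5 libraries that could be technical.

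Dlk1, Meg3, Rian and H13 rose in the mutants, and 5 of the 9 genes did not pass the test. Of all 14572 genes tested in the same way, 6.11% rose and 4.17% fell; over all transcript rows these shares were 6.08% and 4.18%. The median log2 fold change of the 9 was 0.57, against -0.01 for all genes. Of the 5 that did not pass, Mirg and Igf2r lay higher in both mutants than in any control, Grb10 lay lower in both, and Dio3 and Gnas overlapped. Over all genes tested, both mutants lay above every control in 21.7% and below every control in 21.8%, so that the groups did not overlap in 43.6%, against 7 of the 9 genes here. Of the 9, 0 fell by the edgeR test and 0 by DESeq2; 1 gene, Grb10, had a negative fold change with an unadjusted p under 0.05 in edgeR.

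**Figure D1:**
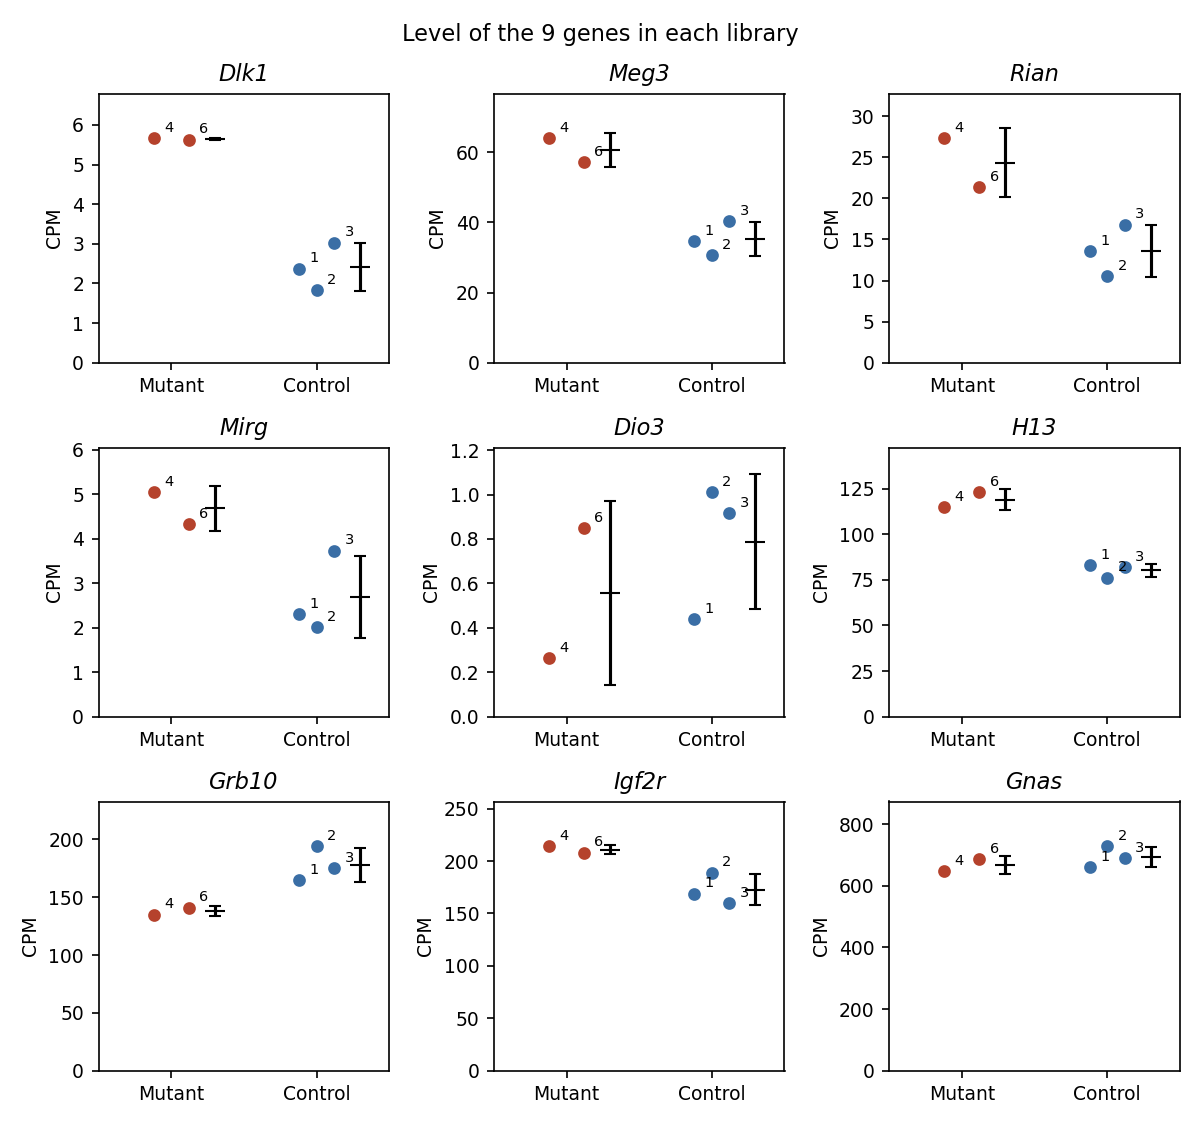
CPM of the 9 genes in each library, with mutants on the left and controls on the right; points are libraries with their number, and bars are mean ± SD (n = 2 mutants, n = 3 controls). Both mutants lie above all controls for Dlk1, Meg3, Rian, Mirg, H13 and Igf2r and below them for Grb10, and the groups overlap for Dio3 and Gnas.

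Meg3, a long noncoding RNA and the first maternal transcript of the cluster, had 64.0 and 57.3 CPM in mutants 4 and 6, against 34.6, 30.7 and 40.4 CPM in controls 1, 2 and 3. The lower mutant lay well above the highest control, control 3. The means were 60.6 ± 4.69 CPM in mutants and 35.2 ± 4.91 CPM in controls (SD, n = 2 and n = 3). That is a 1.72-fold difference, or 0.78 ± 0.15 on the log2 scale (SE), with an edgeR adjusted p of 0.0057. Without mutant 4 Meg3 missed the threshold, at 0.70 on the log2 scale and an edgeR adjusted p of 0.0754; over all alternatives the adjusted p ran from 5.47e-05 to 0.398.

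The table holds 3 rows for Meg3, and all 3 rose. They overlap and share reads, so they are no independent measurements. The values above are those of NR_003633, the row with the most reads. NR_027652 had counts of 594 and 738 in mutants and of 568, 432 and 386 in controls (log2 fold change 0.97 ± 0.15; edgeR adjusted p = 0.00109). NR_027651 changed by 0.75 ± 0.18 (edgeR adjusted p = 0.0189).

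Rian, a maternally expressed noncoding RNA that carries small nucleolar RNAs in its introns, had 27.3 and 21.4 CPM in mutants 4 and 6, against 13.6, 10.5 and 16.8 CPM in controls 1, 2 and 3. The groups did not overlap, and mutant 4 was the higher of the mutants, as for Meg3. Its means were 24.4 ± 4.22 CPM in mutants and 13.7 ± 3.15 CPM in controls (log2 fold change 0.84 ± 0.22; edgeR adjusted p = 0.028). The call was lost without control 1 (edgeR adjusted p = 0.0979), control 2 (0.0562) or mutant 4 (0.236), within a range of 0.00168 to 0.396 over all alternatives.

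Mirg, a maternally expressed noncoding RNA downstream of Rian and a host of microRNAs, had 5.04 and 4.32 CPM in mutants 4 and 6, against 2.31, 2.01 and 3.73 CPM in controls 1, 2 and 3. These are 57 and 56 reads in mutants and 42, 34 and 53 in controls. Control 3 came nearest to the mutants. The log2 fold change was 0.81 ± 0.38, close to those of Meg3 and Rian but with a larger error, and it missed the threshold (edgeR adjusted p = 0.201).

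Dlk1, a paternally expressed membrane protein of the Delta family that holds back differentiation of fat cell precursors, had 5.66 and 5.63 CPM in mutants 4 and 6, against 2.37, 1.83 and 3.03 CPM in controls 1, 2 and 3. The mutants were almost equal and lay above the highest control, control 3. The means were 5.65 ± 0.0206 CPM in mutants and 2.41 ± 0.598 CPM in controls, and the difference of 1.23 ± 0.35 on the log2 scale was the largest of the 9 in size in this fit (edgeR adjusted p = 0.0411; 2.35-fold). It rests on few reads, 64 and 73 in mutants and 43, 31 and 43 in controls. The call was lost without control 1 (edgeR adjusted p = 0.13), control 2 (0.088), mutant 4 (0.164) or mutant 6 (0.15), while the log2 fold change without them stayed between 1.08 and 1.23; the adjusted p over all alternatives ran from 0.0151 to 0.62. On the deposited FPKM the difference was 0.31 with a pseudocount of 1 and 0.69 with 0.1, below those of Mirg (0.74 and 0.98), and without mutant 6 Dio3 had the largest difference in size, at -1.53.

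Dio3, the paternally expressed deiodinase that inactivates thyroid hormone, was near the limit of detection. It had 3 and 11 reads in mutants 4 and 6, against 8, 17 and 13 reads in controls 1, 2 and 3, and the groups overlapped. The log2 fold change was -0.46 ± 0.72 (edgeR adjusted p = 0.738), so no difference was detectable at this depth. Its antisense neighbour Dio3os, a noncoding RNA that is not among the 9, had 3 and 8 reads in mutants and 55, 49 and 20 reads in controls. Dio3os fell (log2 fold change -2.43 ± 0.63; edgeR adjusted p = 0.0247), and the call was lost without any 1 of control 1, control 2, mutant 4 and mutant 6. No source used here states whether reads were counted by strand, so reads of these antisense partners may not be told apart.

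The proportions of the noncoding RNAs to each other overlapped between the groups. They were taken as log2 ratios within a library, where scaling between libraries enters only through the 0.5 CPM added to each gene. Rian over Meg3 was -1.21 and -1.40 in mutants and -1.32, -1.50 and -1.24 in controls. The difference of 0.04 turned sign when single libraries were left out (exact permutation p = 0.8). Mirg over Meg3 was -3.54 and -3.58 in mutants and -3.64, -3.63 and -3.27 in controls (difference -0.05, exact permutation p = 1.0). The paternal gene Dlk1 over Meg3 was -3.39 and -3.24 in mutants and -3.61, -3.74 and -3.54 in controls. Here the mutants lay above all controls, with a difference of 0.32, but 2 libraries against 3 cannot give a two-sided exact permutation p below 0.2, which is the value reached (0.6 adjusted over 6 ratios). With 0.1 CPM added instead of 0.5 the difference was 0.43, and on the deposited FPKM it was 0.07 (exact permutation p = 1.0).

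Other transcripts in and around the cluster had smaller changes, with Dio3os as the exception. Rtl1, the retrotransposon-derived paternal gene between Meg3 and Rian, had 3.18 and 2.93 CPM in mutants and 2.42, 1.95 and 4.86 CPM in controls (log2 fold change 0.00 ± 0.44; edgeR adjusted p = 0.999). Of 11 flanking genes tested on both sides, 0 passed in either direction by edgeR or DESeq2, 2 had an unadjusted p under 0.05, and the median log2 fold change was -0.08. The most abundant of them, Dync1h1, the dynein heavy chain, changed by -0.12 ± 0.13 (edgeR adjusted p = 0.584), and Ppp2r5c, a phosphatase regulatory subunit, by -0.08 ± 0.13 (0.754). The 52 microRNA precursor rows of the cluster had too few reads to test: 41 and 41 reads in all in the mutants, 58, 17 and 41 in the controls, and at most 10 in any row and library. Mature microRNAs were not measured.

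**Figure D2:**
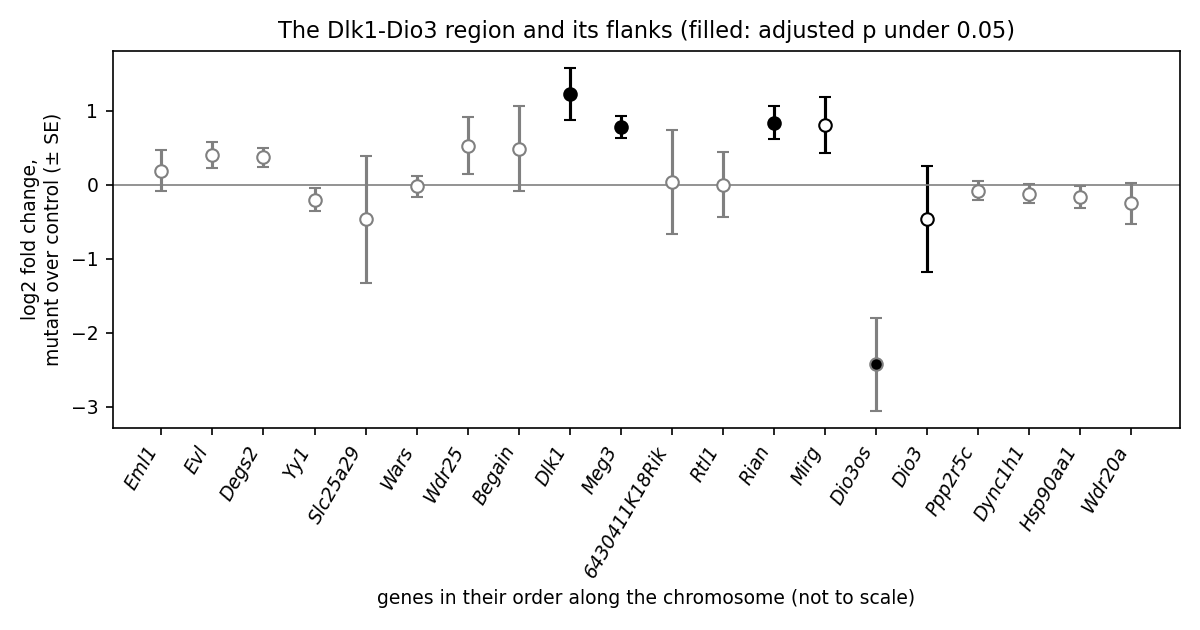
Log2 fold change of mutant over control (± SE, edgeR) for genes along the Dlk1-Dio3 region in chromosome order, with members of the 9 in black and other genes in grey, filled where the adjusted p is under 0.05. Dlk1 at 1.23, Meg3 at 0.78, Rian at 0.84 and Mirg at 0.81 stand above the flanking genes, and Dio3os at -2.43 below them.

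H13, signal peptide peptidase, which clears cleaved signal peptides from the membrane of the endoplasmic reticulum, rose. It had 115 and 123 CPM in mutants 4 and 6, against 82.9, 76.2 and 81.8 CPM in controls 1, 2 and 3. The controls lay close together and both mutants were clearly above them. The means were 119 ± 5.37 CPM in mutants and 80.3 ± 3.60 CPM in controls (log2 fold change 0.57 ± 0.12; edgeR adjusted p = 0.0105; 1.48-fold). The call was lost without mutant 4 (edgeR adjusted p = 0.0744) or mutant 6 (0.125), within a range of 0.0011 to 0.24 over all alternatives.

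In the mouse, H13 is imprinted through the choice of polyadenylation site: full-length transcripts come mostly from the maternal copy, and shortened ones, ending upstream of the retrogene Mcts2 in an H13 intron, from the paternal copy. The table has 4 rows for H13, which share the reads of their common exons, and which of them stand for the shortened forms was not established here. NM_001159551 and NM_010376, with nearly the same reads, both rose by 0.57 ± 0.12 on the log2 scale (edgeR adjusted p = 0.0105 and 0.0106). NM_001159553 had 361 and 391 reads in mutants and 556, 377 and 456 reads in controls, and its log2 fold change was 0.13 ± 0.18 (edgeR adjusted p = 0.692). NM_001159552 changed by 0.28 ± 0.20 (0.393). Whether the rows differ from each other was not tested.

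The count of NM_001159551 was 3.60 and 4.07 times that of NM_001159553 in mutants 4 and 6, and 2.71, 3.41 and 2.55 times in controls 1, 2 and 3. Both mutants lay above all controls, control 2 being nearest. Against NM_001159552 the same ratio was 5.16 and 6.31 in mutants and 4.45, 5.43 and 4.35 in controls, where the groups overlapped. These ratios were chosen after the values were seen and were not tested. Mcts2 itself, paternally expressed and a translation factor, had 18.8 and 24.2 CPM in mutants and 12.9, 17.6 and 21.1 CPM in controls (log2 fold change 0.33 ± 0.22; edgeR adjusted p = 0.376). H13 over Mcts2 as a log2 ratio overlapped between the groups (difference 0.23, exact permutation p = 0.6).

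**Figure D3:**
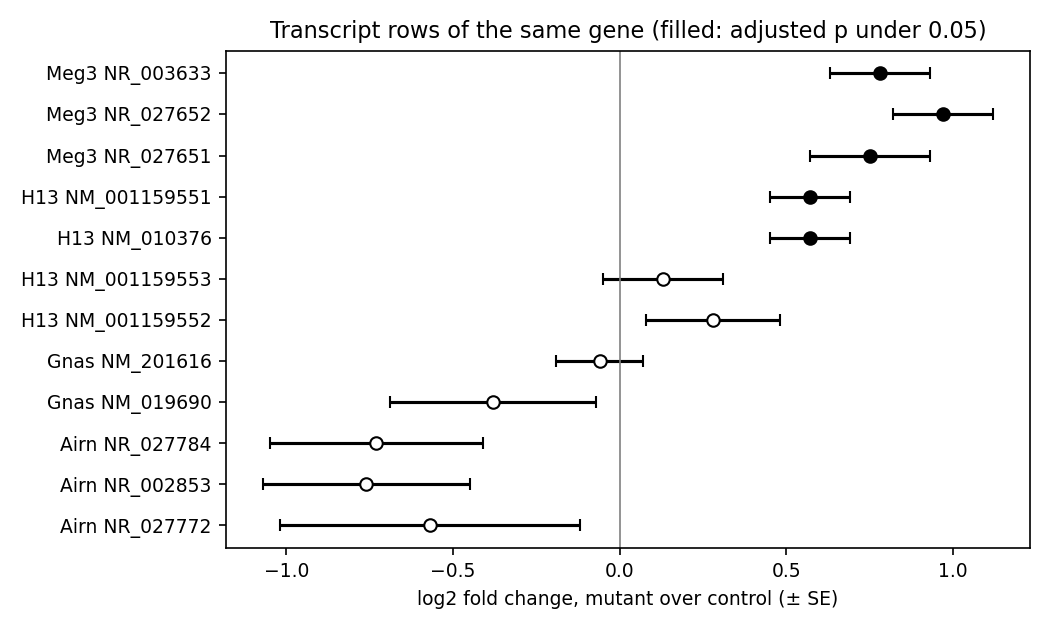
Log2 fold change of mutant over control (± SE, edgeR) for each tested transcript row of Meg3, H13, Gnas and Airn, filled where the adjusted p is under 0.05; for Gnas 1 row stands for 7 near-identical ones. The 3 Meg3 rows and 2 of the 4 H13 rows (NM_001159551 and NM_010376) passed the test, the other 2 H13 rows did not, and the Airn rows lie between -0.76 and -0.57.

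Grb10, an adaptor protein that dampens insulin and IGF1 receptor signalling, was the 1 gene of the 9 that lay lower in both mutants. It had 135 and 141 CPM in mutants 4 and 6, against 165, 194 and 175 CPM in controls 1, 2 and 3. The groups did not overlap. The means were 138 ± 4.43 CPM in mutants and 178 ± 15 CPM in controls. The log2 fold change of -0.37 ± 0.13 did not pass over all genes (edgeR adjusted p = 0.0904, unadjusted p = 0.0137), nor under any alternative (adjusted p 0.0728 to 0.379). The neighbouring gene Ddc, aromatic amino acid decarboxylase, had 12.2 and 17.7 CPM in mutants and 17.9 to 19.2 CPM in controls (log2 fold change -0.32 ± 0.21; edgeR adjusted p = 0.352), and the log2 ratio of Grb10 over Ddc overlapped between the groups (difference -0.03, exact permutation p = 1.0).

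Igf2r, the receptor that binds IGF2 and carries it to lysosomes for breakdown, had 214 and 208 CPM in mutants 4 and 6, against 169, 189 and 160 CPM in controls 1, 2 and 3. The groups did not overlap, with control 2 nearest to the mutants. The log2 fold change was 0.28 ± 0.13 (edgeR adjusted p = 0.183, unadjusted p = 0.0449). Airn, the paternally expressed antisense RNA that silences Igf2r on the paternal copy, had 6.10 and 5.25 CPM in mutants and 13.4, 7.10 and 7.67 CPM in controls. All mutant values were below all control values, but control 1 stood far above the other controls, and the log2 fold change of -0.73 ± 0.32 did not pass (edgeR adjusted p = 0.164). Igf2r over Airn as a log2 ratio was 5.02 and 5.18 in mutants and 3.61, 4.64 and 4.30 in controls, a difference of 0.92 with no overlap. The exact permutation p was 0.2, the smallest this design allows (0.6 adjusted over 6 ratios). Airn overlaps Igf2r on the opposite strand, so reads of the overlap may be assigned to either.

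Gnas, the stimulatory G protein alpha subunit, had the highest level of the 9. It had 647 and 687 CPM in mutants 4 and 6, against 661, 728 and 691 CPM in controls 1, 2 and 3, and the groups overlapped. The log2 fold change was -0.06 ± 0.13 (edgeR adjusted p = 0.822). Of its 9 rows, 7 repeat almost the same reads. The row NM_019690 had far fewer, with 90 and 54 reads in mutants and 136, 116 and 132 in controls (log2 fold change -0.38 ± 0.31; edgeR adjusted p = 0.475). NM_201617 had at most 8 reads in any library and was not tested. Nespas, an antisense transcript of the same locus, had 15 and 23 reads in mutants and 59, 40 and 99 in controls (log2 fold change -1.41 ± 0.51; edgeR adjusted p = 0.0958).

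**Figure D4:**
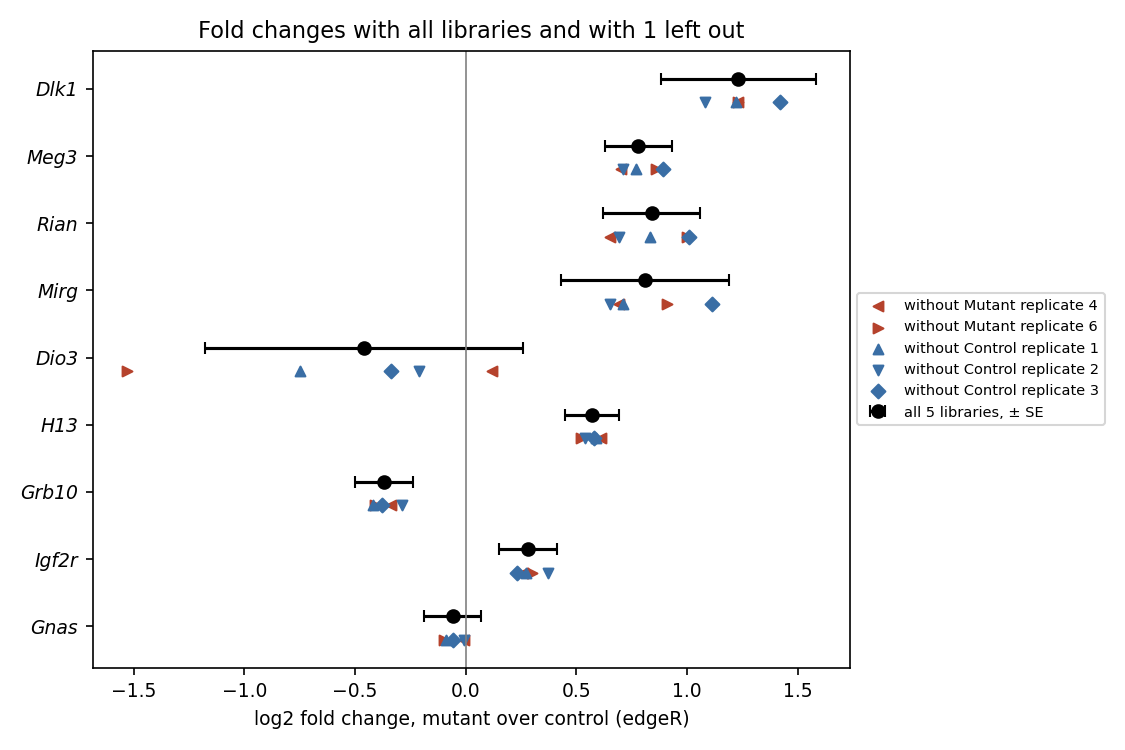
Log2 fold change of mutant over control for the 9 genes (edgeR), with all libraries as black circles ± SE and with 1 library left out as coloured marks. Each of Dlk1, Meg3, Rian, Mirg, H13 and Igf2r stayed above 0 and Grb10 and Gnas below 0 whichever library was left out, while Dio3 ran from -1.53 to 0.12.

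Per transcript length, the order of the 9 can be read from the FPKM deposited by the authors (reads scaled to transcript length and library size). Gnas was highest at 358 ± 30.9 FPKM in mutants and 368 ± 31.0 FPKM in controls. Grb10 had 25.3 ± 0.639 FPKM in mutants and 31.8 ± 2.84 in controls, Igf2r 21.3 ± 1.21 and 18.1 ± 2.62, and H13 21.0 ± 1.75 and 13.5 ± 2.34. Igf2r and H13 did not differ beyond their spread in mutants. Rian followed with 5.77 ± 2.08 FPKM in mutants and 3.23 ± 0.578 in controls, Meg3 with 4.41 ± 0.291 and 2.84 ± 0.391, and Mirg with 3.84 ± 0.808 and 1.88 ± 0.192. In mutants these 3 did not differ beyond their spread, and in controls Rian and Meg3 did not. Dlk1 was at 0.935 ± 0.0347 FPKM in mutants and 0.569 ± 0.221 in controls, and Dio3 at 0.143 ± 0.105 and 0.296 ± 0.217. The place of Meg3 depends on the row, since NR_027652 had 24.7 and 29.2 FPKM in mutants and 12.5 to 17.0 FPKM in controls. On these FPKM the groups were separated or overlapped for the same genes and in the same directions as on CPM, but limma on log2(FPKM + 1), adjusted over all rows, called 0 of the 9 genes in either direction. At an unadjusted p under 0.05 it found 2 higher and 1 lower; DESeq2 on the counts called 4 higher.

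The captured areas also held RNA of other cell types, and its level went with genotype. Markers of mesenchyme and smooth muscle had a summed level of 2340 and 2170 CPM in mutants 4 and 6, against 1480, 1580 and 1630 CPM in controls 1, 2 and 3. Of 17 tested (18 listed, with Twist1 too low to test and at 0 reads in mutant 6), 7 rose and 0 fell, with a median log2 fold change of 0.61; these were Col1a1, Col1a2, Col3a1, Lum, Pdgfra, Acta2 and Myh11. All 7 lost the call without mutant 4, and 0 were called on the deposited FPKM. The collagen gene Col3a1 averaged 462 CPM in mutants and 302 CPM in controls (log2 fold change 0.61 ± 0.12; edgeR adjusted p = 0.00665). None of the 18 was at 0 in all libraries. Dlk1, Meg3 and Rian are expressed in fetal mesenchyme, where VillinCre is not active. Which of the captured cells expressed them here was not tested. In bulk RNA, more cells of a type and more RNA per cell cannot be told apart.

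Meg3, Dlk1, Rian, Mirg, H13, Igf2r and Grb10 were also set against the summed mesenchyme markers. This division lowers every mutant value relative to the controls by about the same factor, whatever the gene. Per 1000 CPM of these markers, Meg3 had 27.4 and 26.5 CPM in mutants and 23.4, 19.4 and 24.8 in controls, so that both mutants still lay above all controls by a small margin. Dlk1 had 2.42 and 2.60 in mutants and 1.60, 1.16 and 1.85 in controls, again without overlap. Rian overlapped, with 11.7 and 9.86 in mutants and 9.18, 6.67 and 10.3 in controls, and so did Mirg, with 2.16 and 1.99 in mutants and 1.27 to 2.29 in controls. H13 overlapped as well, with 49.2 and 56.6 in mutants and 55.9, 48.2 and 50.1 in controls. Igf2r lay lower in both mutants than in any control, with 91.5 and 95.8 in mutants and 98.2 to 120 in controls. So did Grb10, with 57.6 and 65.0 in mutants and 107 to 123 in controls. The part of mesenchymal RNA in the rises on CPM was not tested.

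**Figure D5:**
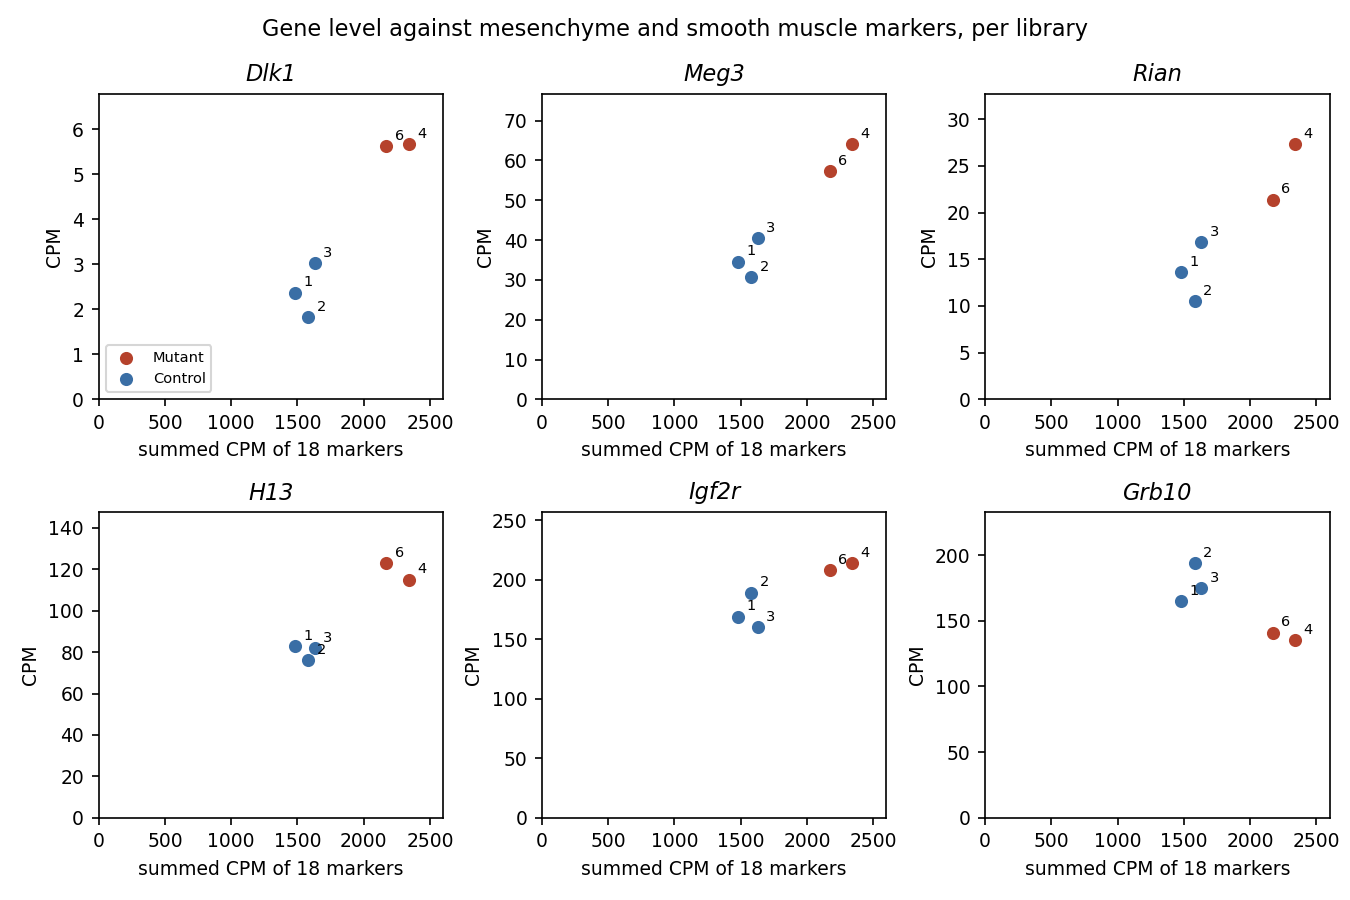
CPM of 6 of the genes against the summed CPM of 18 mesenchyme and smooth muscle markers, 1 point per library with its number. Both mutants lie to the right of all controls, at 2340 and 2170 CPM against 1480 to 1630 CPM, and higher for all genes shown except Grb10.

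Markers of other non-epithelial cells were also summed, and all 4 sums were higher in both mutants than in any control. The summed level of immune markers was 381 and 330 CPM in mutants and 210 to 213 CPM in controls, of endothelial markers 222 and 205 CPM in mutants and 161 to 192 CPM in controls, and of enteric neuron and glia markers 54.5 and 57.2 CPM in mutants and 21.9 to 32.7 CPM in controls. Of the immune list 1 of 8 rose, the macrophage receptor Csf1r, which had 175 and 160 CPM in mutants and 41.4 to 70.1 CPM in controls; Cd74, Tyrobp and Laptm5 overlapped between the groups. Of the neural list 2 of 5 tested rose, S100b and Uchl1. S100b alone had 22.6 and 23.3 CPM in mutants and 6.28 to 7.52 CPM in controls. Single genes such as Csf1r and S100b thus weigh on these sums, and a general rise of these cell types was not tested. Csf1r and S100b kept the call without any 1 library, and Uchl1 lost it whichever library was left out. Of the 8 endothelial markers 0 passed by edgeR or DESeq2, and 2 had an unadjusted p under 0.05. None of these lists had a member that was at 0 in all libraries. Erythroid markers summed to 36.7 and 37.2 CPM in mutants and 29.7 to 35.5 CPM in controls, with Alas2 alone of 3 tested called, and lower, a call lost whichever library was left out.

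Among other genes listed as imprinted and maternally expressed, 2 of 19 tested rose and 0 fell, with a median log2 fold change of 0.19. Over all genes tested 6.11% rose and 4.17% fell, and the counts of all lists are to be read beside these shares. Whether the listed genes, maternal or paternal, are imprinted in the captured cells was not tested. H19, a noncoding RNA of another chromosome, had 2000 and 3160 CPM in mutants, against 1030, 679 and 691 CPM in controls (log2 fold change 1.69 ± 0.21; edgeR adjusted p = 0.000195), a larger change than that of any of the 9. The tetraspanin Cd81 rose by 0.50 ± 0.14 (0.0387), a call kept in 1 of 5 fits with a library left out, without control 1. Of 23 tested genes listed as paternally expressed, 2 rose and 0 fell, with a median of 0.25. Plagl1, a zinc finger transcription factor, rose by 1.02 ± 0.16 (edgeR adjusted p = 0.00145) and the adaptor Gab1 by 0.62 ± 0.13 (0.00664). Igf2, the growth factor that Igf2r clears, averaged 633 CPM in mutants and 448 CPM in controls (log2 fold change 0.50; edgeR adjusted p = 0.0675). Kcnq1ot1, a paternal antisense RNA, averaged 235 CPM in mutants and 358 CPM in controls (-0.61 ± 0.23; edgeR adjusted p = 0.114), and the maternal cell cycle inhibitor Cdkn1c averaged 155 CPM in mutants and 136 CPM in controls (0.19 ± 0.23; 0.656). Gab1 missed the threshold without mutant 4, and Plagl1 kept its call without any 1 library.

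Of 25 neighbours of H13, Grb10, Igf2r and Gnas, 1 rose and 3 fell, with a median log2 fold change of -0.28. The shares over all genes tested were 6.11% higher and 4.17% lower. Near Igf2r, Slc22a3, a transporter imprinted in the placenta, had 0.354 and 0 CPM in mutants and 1.30 to 2.68 CPM in controls (log2 fold change -3.47 ± 0.88; edgeR adjusted p = 0.0225), and Acat2, an enzyme of acetoacetyl-CoA metabolism, changed by -0.82 ± 0.19 (0.0159). Near Gnas, the aminopeptidase Npepl1 changed by -0.83 ± 0.19 (0.0124). The most abundant neighbours were the cathepsin Ctsz, with a mean of 322 CPM in mutants and 238 CPM in controls (0.44 ± 0.19; 0.162), and the chaperonin subunit Tcp1, with 215 CPM in mutants and 268 CPM in controls (-0.32 ± 0.13; 0.151). Slc22a3 and Npepl1 each lost the call without control 1 or mutant 6, and Acat2 without mutant 4.

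Genes that work with Grb10 and Igf2r moved in both directions: of 19 insulin and IGF signalling genes tested, 2 rose and 5 fell, with a median of -0.04. Among all genes tested, 6.11% rose and 4.17% fell. The receptor substrate Irs2 had 22.2 and 22.1 CPM in mutants, against 48.7, 35.9 and 47.9 CPM in controls (log2 fold change -0.99 ± 0.17; edgeR adjusted p = 0.00272). The receptors Igf1r (-0.68 ± 0.16; 0.016) and Insr (-0.46 ± 0.13; 0.037) and the mRNA-binding proteins Igf2bp1 (-0.82 ± 0.17; 0.00803) and Igf2bp3 (-0.45 ± 0.13; 0.0439) fell too. The binding proteins Igfbp7 (0.74 ± 0.16; 0.00936) and Igfals (1.72 ± 0.45; 0.0267) rose. Irs2 kept its call without any 1 library, and each of the other 6 lost it without at least 1 of control 1, control 2, mutant 4 and mutant 6. The most abundant gene of the list, the ubiquitin ligase Nedd4, averaged 776 CPM in mutants and 860 CPM in controls (-0.15 ± 0.13; 0.501).

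In thyroid hormone handling, where Dio3 acts, 2 of 11 genes tested rose and 1 fell, with a median of -0.19. Among all genes tested, 6.11% rose and 4.17% fell. Dio1, the deiodinase that can activate the hormone, had 29.9 and 13.1 CPM in mutants, against 2.09, 5.03 and 6.20 CPM in controls (log2 fold change 2.29 ± 0.39; edgeR adjusted p = 0.00235). The carrier Ttr rose by 2.21 ± 0.36 (0.0015) and the receptor Thra fell, changing by -0.92 ± 0.17 (0.00375). Dio1 and Thra lost the call without mutant 4. The mutant areas were chosen as Ki67-negative. The most abundant gene of the list, the corepressor Ncor1, averaged 462 CPM in mutants and 522 CPM in controls (-0.18 ± 0.13; edgeR adjusted p = 0.406), and the transporter Slc16a10 averaged 253 CPM in mutants and 191 CPM in controls (0.40 ± 0.15; 0.0996).

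In Gs and cAMP signalling, where Gnas acts, 1 of 20 genes rose, the adenylyl cyclase Adcy3 (0.61 ± 0.16, edgeR adjusted p = 0.0256). The cyclase Adcy6 (-0.56 ± 0.16; 0.042) and the kinase subunit Prkar2a (-0.67 ± 0.14; 0.00669) fell, and the median was -0.08. The most abundant were the G protein subunits Gnb1, at 436 CPM in mutants and 467 CPM in controls (-0.10 ± 0.13; 0.674), and Gng12, at 327 CPM in mutants and 331 CPM in controls (-0.02 ± 0.13; 0.955). Of 6 signal peptide processing genes, which act with H13, the peptidase subunit Sec11c rose (0.84 ± 0.20; 0.0153) and 0 fell, with a median of 0.18. The other subunits Spcs3 (0.24 ± 0.16; 0.369) and Spcs2 (0.11 ± 0.16; 0.714), the most abundant of that list, did not pass. Of 10 imprint upkeep factors, Dnmt1, its cofactor Uhrf1 (-0.67 ± 0.18; 0.0276) and Arid4a (-0.53 ± 0.14; 0.0314) fell and 0 rose, with a median of -0.26. Trim28, the corepressor that ZFP57 recruits, averaged 151 CPM in mutants and 201 CPM in controls (edgeR adjusted p = 0.0879), and the de novo methyltransferase Dnmt3a 131 CPM in mutants and 130 CPM in controls (0.961). Adcy3, Adcy6, Prkar2a, Sec11c, Uhrf1 and Arid4a each lost the call when mutant 4 or mutant 6 was left out. Adcy6, Sec11c, Uhrf1 and Arid4a also lost it without control 1. So did Uhrf1 without control 2, and Adcy3 and Arid4a without control 3.

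The profiles most like those of Meg3, Dlk1 and Grb10 were found as the smallest distance between log2 CPM values centred over the 5 libraries, among the 10009 rows (10010 for Dlk1) whose log2 CPM averaged 3 or more. For Meg3 these included Fhdc1 (distance 0.138), Cyba (0.148), Gatsl2 (0.171) and Rhou (0.172), with log2 fold changes of 0.69 to 0.80. For Dlk1 they were Nfam1 (0.156), Ccdc120 (0.253), Cdkn1a (0.256), Sct (0.267) and Ambp (0.315), and for Grb10 Sod2 (0.032), Lrrfip2 (0.064), Aimp2 (0.065), Pak4 (0.081) and Exosc9 (0.084). The 5 libraries share their group split, so a small distance describes these libraries and no more.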

How the data were processed

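Single-read libraries (100 bp) were made from laser-captured RNA after cDNA amplification. The tables were deposited by the authors, with raw counts and with FPKM for RefSeq transcripts. Per the submitters' processing notes, build mm9 and edgeR were used; no aligner, counter or version is given in the sources used here. Of the 28644 rows, 41 had a spreadsheet date as symbol and were renamed by transcript. 0 per-sample columns were left unmatched.

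edgeR 4.0.16 (R 4.3.3) gave the main quasi-likelihood test of the counts, with its default low-count filter, TMM normalization, 3 residual degrees of freedom and no covariate, on all 19353 rows that passed. Benjamini-Hochberg adjustment ran over these rows, with a threshold of 0.05, and every "edgeR adjusted p" is this one. The SE was derived as the size of the log2 change over the root of the F statistic. CPM are scaled to the sum over transcript rows, which repeats reads of genes with several rows. FPKM were tested with limma 3.58.1 on log2(FPKM + pseudocount), which understates changes of low genes. Within-library ratios used log2 of CPM + 0.5 and two-sided exact permutation tests (SciPy 1.17.1).

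Alternatives were RLE and upper-quartile normalization, no filter, a CPM of at least 5 in 2 libraries, DESeq2 1.42.0, 1 row per gene, FPKM (pseudocounts 1 and 0.1, or a mean of at least 1), and leaving out each library. Library pairs of the same group differed beyond sampling noise (chi-square per gene 9.94 to 25.2, where about 1 would be noise). The fitting code was tested on simulated data. The 9 genes and all lists were chosen with earlier results of these data known. Named were all 9 genes, the called genes and the 2 genes with the highest mean count of each gene list, the checks Dnmt1, Mki67 and Xist, and the 5 nearest profiles of Meg3, Dlk1 and Grb10; marker and partner genes are named beside the results they touch. Some genes under this rule are not reported here.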

Additional observations from a re-analysis of the deposited data

How the results depend on the processing

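With RLE or upper-quartile normalization, no filter, the stricter filter, DESeq2 or 1 row per gene, 4 of the 9 genes were called higher and 0 lower, as in the edgeR fit of all libraries. The stricter filter left 7 of the 9 to test, without Mirg and Dio3. On the deposited FPKM (pseudocount 1, pseudocount 0.1, mean of at least 1) 0, 0 and 0 were called higher. The fit with a mean of at least 1 tested 7 of the 9, without Dlk1 and Dio3. With 1 library left out, between 0 (without mutant 4) and 4 were called higher, with 2 without control 1, control 2 or mutant 6. Over all rows, calls were 1176 higher and 809 lower. They were 126 and 14, 188 and 43, and 332 and 163 in the 3 FPKM fits, and the lower calls were 1243 with no filter. Upper-quartile normalization gave 1307 higher and 663 lower calls. With 1 library left out the higher calls ranged from 521 to 1384 and the lower calls from 223 to 860. The cause of these changes was not tested, and fits with 1 library left out also had fewer libraries. Among single genes Dio3 changed sign, to 0.12 without mutant 4, within a leave-one-out range of -1.53 to 0.12. Of the 26 called genes in the 10 other lists, 5 kept the call without any 1 library and 0 were called in all 3 FPKM fits.

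The difference in the log2 ratio of Mirg over Meg3 turned to 0.04 with a pseudocount of 0.1 and to 0.36 on FPKM, and that of Grb10 over Ddc to 0.26 on FPKM. With 1 library left out, a choice added after seeing the data, Rian over Meg3 ranged from -0.05 to 0.14, Mirg over Meg3 from -0.11 to 0.08 and Grb10 over Ddc from -0.26 to 0.20. No paired analysis was possible because the groups share no replicate numbers. Dio3, Dlk1 and Mirg have under 100 reads in every library, which limits their precision.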
